A study of Mus musculus with 6 samples.

Results

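The 10 transcription factors and cofactors that define B cells and germinal centre B cells, Bcl6, Pax5, Bach2, Irf8, Spib, Ebf1, Ets1, Pou2af1, Pou2f2 and Mef2b, were followed in cultured B cells with and without Prmt1. They were taken by gene symbol from a table of raw exon counts, in which the 10 symbols filled 11 of 39017 rows because Ebf1 is listed under a pair of gene identifiers. The libraries came from induced germinal centre B cells (iGBs), which are splenic B cells activated by culture on 40LB cells, a fibroblast feeder line that displays CD40L and secretes BAFF, with IL-4. All mice were C57BL6/J and carried Cg1-cre, a Cre recombinase driven from the Ighg1 locus that becomes active once a B cell is stimulated. The 3 Control mice carried Cg1-cre alone, and the 3 Prmt1-null mice were Cg1-cre Prmt1f/f and so also had floxed Prmt1 alleles. Each group had 2 females and 1 male, and each mouse gave 1 library. The cells were harvested at day 3.5 after the feeders had been depleted with an antibody to H2K. The labels give 5 ng/ml IL-4 for every library, whereas the study's methods give a lower concentration, and the ages of the mice are not given in the sources used here. Because Cre was active in both groups, the comparison addresses what the loss of Prmt1 in an already activated B cell did to the transcripts of these factors.

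The 10 factors form a network. PAX5 and EBF1 commit cells to the B lineage and keep its genes on. BCL6, a repressor whose gene is activated by MEF2B, holds cells in the germinal centre state, and BACH2 and ETS1 delay the step to plasma cells. IRF8 and SPIB act on shared ETS and interferon response elements, and POU2F2 (OCT2) with its coactivator POU2AF1 (OBF-1) binds the octamer element of immunoglobulin and other B cell genes.

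The 6 libraries held between 45343250 and 62774232 counts on genes. The 3 Prmt1-null libraries still held 36.9% of the mean Control level of Prmt1, the deleted arginine methyltransferase, with a log2 fold change of -1.44. The 5 B cell markers Cd79a, Cd79b, Ms4a1, Ptprc and Cd22 were abundant in every library, with summed normalized counts of 357195 to 371491 in Control and 359899 to 381938 in Prmt1-null iGBs, and 0 of the 5 passed the test (edgeR; 2 of 5 had an unadjusted p under 0.05). Markers of other cells were low. The 6 T cell markers summed to 66.1 to 161 normalized counts in Control and 79.4 to 167 in Prmt1-null libraries, and 0 of the 5 that could be tested passed in edgeR or had an unadjusted p under 0.05. The 5 myeloid markers summed to 494 to 684 in Control and 843 to 865 in Prmt1-null libraries. Of the 4 of these that could be tested, 1 rose, Adgre1 (F4/80, a macrophage surface protein), with a log2 fold change of 0.73 (edgeR, adjusted p = 0.0319), a call lost in 5 of the 6 fits that left out a library, all but that without Control 3. The monocyte marker Cd14 was at a mean of 0.585 in Control and 0 in Prmt1-null libraries, under the floor of 3 counts per library. The other myeloid markers were detected and did not pass in edgeR. Their means in Control and Prmt1-null libraries were 136 and 146 for Itgam, 81.6 and 102 for Csf1r, and 37.1 and 22.3 for Lyz2. The 7 fibroblast markers summed to 849 to 1083 and 1058 to 1321 normalized counts, and 0 of 7 passed in edgeR, with 2 at an unadjusted p under 0.05. What part these cells had in the values of Irf8, which myeloid cells also use, was not tested.

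Expressed as RPKM, counts scaled to library size and exon length, the factors covered a wide range, and each member lay above the median of the 18062 tested genes of known length. Pou2af1 stood first at 2405 RPKM over the 6 libraries, in the 99.9th percentile. Spib followed at 203 RPKM, then Ets1 at 74.3, Irf8 at 69.2 and Ebf1 at 36.1. Pax5 at 22.4, Bach2 at 20.6 and Bcl6 at 20.3 RPKM lay close together, and Mef2b at 13.7 and Pou2f2 at 5.30 RPKM closed the order, the last in the 56.7th percentile. The ranges over libraries overlapped between the neighbours Ets1 and Irf8, Pax5 and Bach2, and Bach2 and Bcl6, so these orders are not fixed by the data. The level of the coactivator gene Pou2af1 thus stood far above that of Pou2f2, one of the POU factors it joins.

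**Figure D1:**
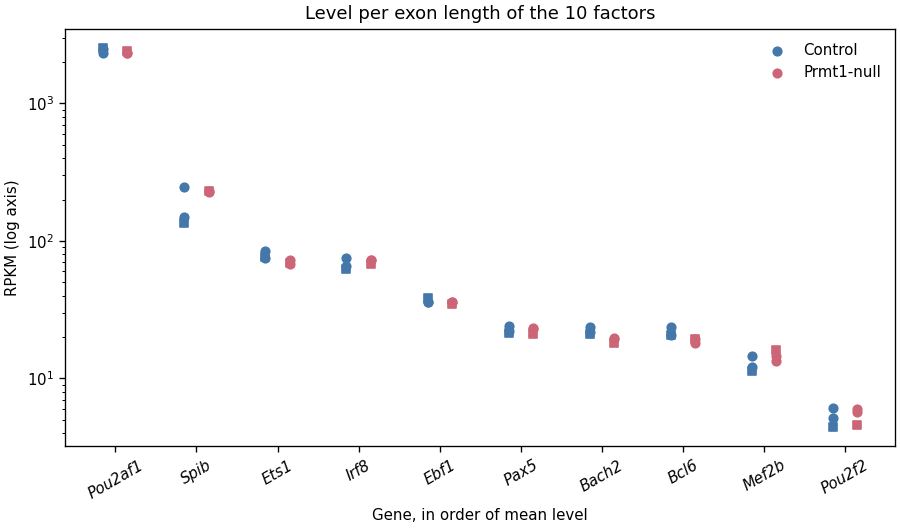
Level of each factor per exon length in RPKM (vertical log axis), with genes ordered by their mean on the horizontal axis. Each point is 1 library, Control in blue and Prmt1-null in red, with males as squares and females as circles. Pou2af1, at a mean of 2405 RPKM, stands apart from the other 9 genes, and the Control points of Spib spread from 136 to 246 RPKM.

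Promoter windows of RefSeq (GRCm38.p6, 250 bases before to 50 after a start) were found for 9 of the 10 factors, 12 windows in all, and were searched on both strands for short elements that the factors themselves bind. The octamer ATGCAAAT, bound by POU2F2, was in 1 of 12 windows, that of Mef2b, and in 1.74% of all 32851 windows. A BCL6-type element, TTCCTNGAA, was in 1 of 12, at the inner of 2 starts of Bcl6, and in 1.59% of all windows. An EBF1-type element, CCCNNGGG, was in 2 of 12, those of Spib and the outer start of Irf8, and in 13.7% of all. An element of the SPI1 and SPIB kind, AGGAAGT, was in 0 of 12 and in 9.35% of all. The 4 windows with a match are printed 5′ to 3′ with the matched letters in capitals. They show where the letters bound by 1 factor lie around a start of the gene of another or of the same factor. The match in Irf8 begins 5 bases after the start, and the windows of Bcl6 and Mef2b lie within the annotated genes. In Spib the capitals are 2 overlapping matches. A match describes the letters only and is not evidence of binding in these cells.
Bcl6, chr16:23981234-23981533, minus strand: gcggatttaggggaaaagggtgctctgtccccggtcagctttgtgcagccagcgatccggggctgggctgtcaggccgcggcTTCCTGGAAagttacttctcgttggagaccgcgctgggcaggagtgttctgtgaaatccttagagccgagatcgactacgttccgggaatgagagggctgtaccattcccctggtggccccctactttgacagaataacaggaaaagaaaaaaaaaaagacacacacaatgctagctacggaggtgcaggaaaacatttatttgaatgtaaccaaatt
Spib, chr7:44532022-44532321, minus strand: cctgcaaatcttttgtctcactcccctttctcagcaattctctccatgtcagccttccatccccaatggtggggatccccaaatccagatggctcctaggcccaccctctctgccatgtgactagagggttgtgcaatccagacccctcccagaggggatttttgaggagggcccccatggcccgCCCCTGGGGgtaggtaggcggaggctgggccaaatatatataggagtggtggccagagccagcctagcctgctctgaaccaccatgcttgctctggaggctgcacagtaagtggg
Irf8, chr8:120736108-120736407, plus strand: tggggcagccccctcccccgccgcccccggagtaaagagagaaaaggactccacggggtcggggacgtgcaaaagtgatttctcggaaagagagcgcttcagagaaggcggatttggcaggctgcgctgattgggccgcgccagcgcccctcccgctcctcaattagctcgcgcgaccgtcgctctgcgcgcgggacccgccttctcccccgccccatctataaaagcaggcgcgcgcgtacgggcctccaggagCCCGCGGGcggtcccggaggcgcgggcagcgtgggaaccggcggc
Mef2b, chr8:70152511-70152810, plus strand: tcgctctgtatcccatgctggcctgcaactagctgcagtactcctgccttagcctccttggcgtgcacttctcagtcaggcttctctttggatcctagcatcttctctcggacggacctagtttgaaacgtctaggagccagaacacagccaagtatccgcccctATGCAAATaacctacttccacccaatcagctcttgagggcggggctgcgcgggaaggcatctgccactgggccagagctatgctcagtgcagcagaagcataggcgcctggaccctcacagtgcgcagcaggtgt

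Of the 10 factors, 0 passed the threshold (adjusted p under 0.05 in edgeR's quasi-likelihood test and a mean normalized count over 100), 0 higher and 0 lower. Over all 18268 genes tested, 1.18% passed, 0.58% higher and 0.602% lower. Of the 7083 with a mean count above that of the lowest factor, 169 passed. The smallest absolute log2 fold change of any gene that passed was 0.245, larger than those of Bcl6, Bach2 and Ets1. The count of 0 therefore does not show that these factors were unchanged. An unadjusted p under 0.05 was found for 4 of the 10, Spib higher and Bcl6, Bach2 and Ets1 lower, against 13.5% of all genes. DESeq2, the tool the study itself used, called 2 of the 10, Bach2 and Ets1, both lower. That fit called 5.33% of its genes, and limma-voom called 0 of the 10. The groups did not overlap for 3 of 10 factors, Bcl6, Bach2 and Ets1, against 19.9% of all genes. The 10 factors had a median log2 fold change of -0.03, beside -0.0008 over all genes tested. In bulk RNA of this kind, fewer cells that use a gene and less of its RNA per cell cannot be told apart.

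**Figure D2:**
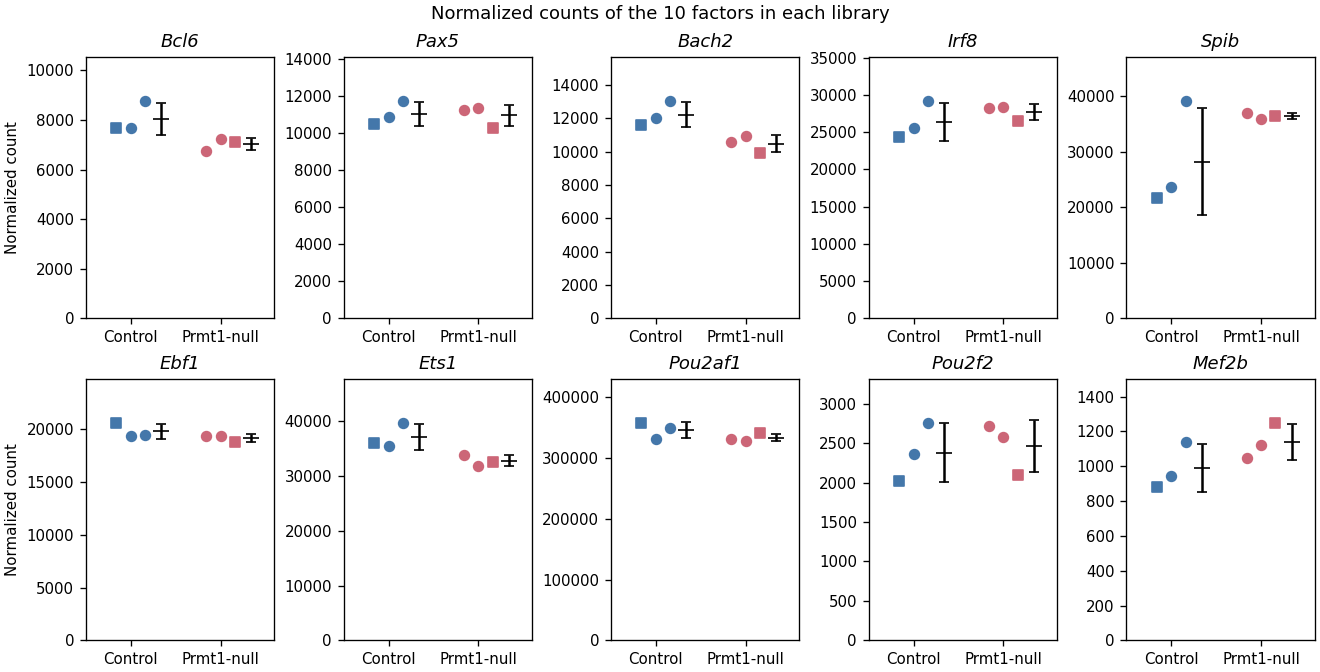
Normalized counts (vertical axes from 0, a scale for each gene) of the 10 factors. Each point is 1 library, Control in blue and Prmt1-null in red, males as squares and females as circles, and the bar beside each group is the mean ± SD of n = 3 mice. The Control points lie above the Prmt1-null points for Bcl6, Bach2 and Ets1, and 1 Control library lies apart from the other 2 for Spib.

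Bach2, the repressor that pairs with small MAF proteins and holds back Prdm1, had the lowest fold change of the 10. On chromosome 4 from 32238804 to 32586108 (plus strand, GRCm38), its exons share 537 bases with the antisense gene Bach2os. Its counts, scaled by edgeR to a common library size, were 11579, 12029 and 13074 in Control 1 to 3 and 10582, 10922 and 9928 in Prmt1-null 1 to 3. All Prmt1-null values were thus under all Control values, with the male Prmt1-null library lowest. The means were 12227 ± 767 and 10477 ± 505 (SD, n = 3), and the log2 fold change of -0.22 (SE 0.065, 95% interval -0.36 to -0.08) had an adjusted p of 0.124 in edgeR. Over 9 other settings with all 6 libraries the adjusted p ran from 0.0196 to 0.192, and it was under 0.05 in 3 of them, both DESeq2 fits and edgeR without a filter, a fit that gave every gene the spread of the trend. Within sexes the log2 ratio of Prmt1-null to Control was -0.22 for the females and -0.22 for the male pair.

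Bcl6 is the master repressor of the germinal centre (chromosome 16, 23965052 to 23988852, minus strand). Its normalized counts were 7663, 7670 and 8787 in Control and 6769, 7227 and 7124 in Prmt1-null libraries. The groups did not overlap, although Control 3 lay well above Control 1 and 2. The log2 fold change was -0.19 (SE 0.066, 95% interval -0.33 to -0.05; edgeR, adjusted p = 0.201), with means of 8040 ± 647 and 7040 ± 241 (SD, n = 3). Without Control 3 it was -0.12 (edgeR, adjusted p = 0.348), and the adjusted p over the 9 other settings ran from 0.0903 to 0.221. The difference was -0.23 between the females and -0.11 between the males on the log2 scale.

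Ets1, an ETS factor that restrains plasma cell formation (chromosome 9, 32636221 to 32757820, plus strand), showed the same order of groups. It had 35981, 35551 and 39776 normalized counts in Control and 33855, 31909 and 32591 in Prmt1-null libraries. Here too Control 3 was the highest library and no Prmt1-null library reached a Control value. With means of 37103 ± 2325 and 32785 ± 987 (SD, n = 3), the log2 fold change was -0.18 (SE 0.065, 95% interval -0.32 to -0.04; edgeR, adjusted p = 0.225). Only the DESeq2 fits, with adjusted p values of 0.0488 with and without a prior, took it past the threshold. The highest adjusted p was 0.309 over the 9 other settings with all 6 libraries and 0.582 over the fits with a library left out, the latter without Prmt1-null 2. As a percentage of the Control level, the interval runs from -19.8% to -2.68%.

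Spib, which encodes an ETS factor close to PU.1, was the factor with the highest fold change and the widest spread. The gene (chromosome 7, 44525993 to 44532071, minus strand) lies 443918 bases from Prmt1 on the same chromosome. Control 1 and 2 held 21593 and 23707 normalized counts and Control 3 held 39195, while Prmt1-null 1 to 3 held 36883, 35865 and 36485. Control 3 was therefore above every Prmt1-null library, Control 1 and 2 were below, and the groups overlapped. The Control mean was 28165 ± 9611 and the Prmt1-null mean 36411 ± 513 (SD, n = 3), with a log2 fold change of 0.37 (SE 0.158, 95% interval 0.03 to 0.71; edgeR, adjusted p = 0.315).

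The values of Spib moved most with that library. Without Control 3 its log2 fold change was 0.69 with an adjusted p of 0.000246 in edgeR, and leaving out any other library gave 0.21 to 0.39 and no call. The male pair differed by 0.76 and the females, among them Control 3, by 0.21 on the log2 scale. With edgeR's robust estimate of spread, which lets a gene with a stray library keep its own variance, the adjusted p was 0.642. It was 0.543 with DESeq2, 0.182 with limma-voom and 0.155 with the replicate block. DESeq2 with a prior gave a log2 fold change of 0.16, the lowest of the settings with all 6 libraries. Of the 9 other settings with all 6 libraries, 1 called Spib, edgeR without the filter on low counts (adjusted p = 1.21e-05), a fit in which the gene's own spread between libraries was replaced by that of the trend. Control 3 was the highest of its group for 8 of the 10 factors and above the group mean for 9, whereas Control 2 was below its group mean for 10 of 10. Without Control 3 the log2 fold change of Bach2 was -0.17 and that of Ets1 -0.12, nearer to 0, while those of Irf8 at 0.16 and Mef2b at 0.32 were farther from 0.

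**Figure D3:**
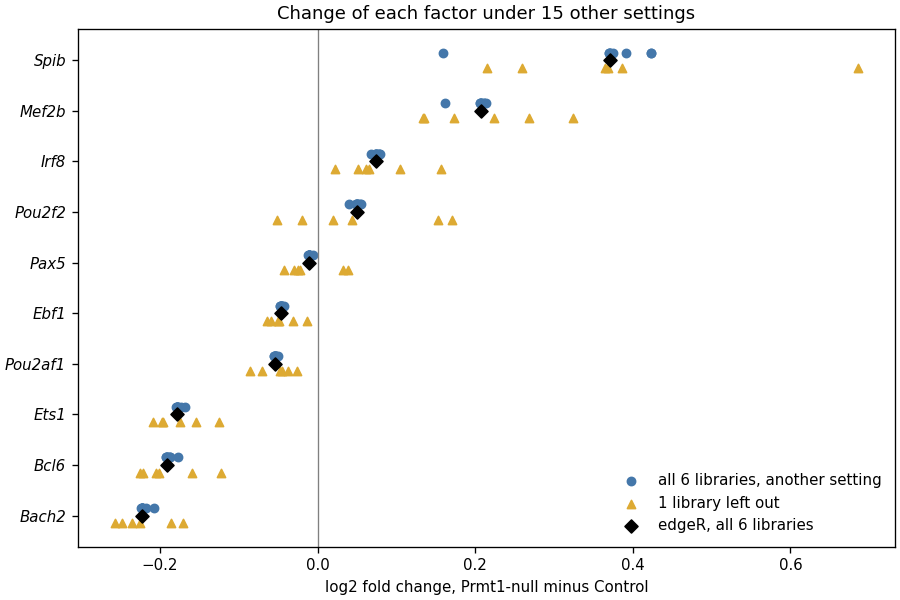
Log2 fold change of each factor, Prmt1-null minus Control (horizontal axis), under 15 settings besides the one reported. Black diamonds are the edgeR values with all 6 libraries, blue circles other settings with all 6 and yellow triangles fits with 1 library left out. The triangles of Spib reach from 0.21 to 0.69, and those of Pax5 and Pou2f2 lie on both sides of 0.

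For the factors that commit cells to the B lineage, the intervals of the fold change included 0. Pax5 (chromosome 4, 44524757 to 44710487, minus strand) had 10488, 10852 and 11754 normalized counts in Control and 11237, 11334 and 10284 in Prmt1-null libraries. The ranges of the groups overlapped, with Control 3 highest and Prmt1-null 3 lowest, and the log2 fold change was -0.01 with a 95% interval of -0.15 to 0.13 (edgeR, adjusted p = 0.965). Ebf1 (chromosome 11, 44617317 to 45008091, plus strand) had 20651, 19392 and 19468 against 19411, 19418 and 18776. Control 1 was the highest and the groups overlapped, with a log2 fold change of -0.05 and an interval of -0.17 to 0.08 (edgeR, adjusted p = 0.793). The other row named Ebf1, ENSMUSG00000078561, is not in GENCODE M21 and was kept apart. It held 2171, 1757 and 1915 against 1722, 1622 and 1757 normalized counts, which overlapped, and had a log2 fold change of -0.19 (95% interval -0.39 to 0.005; edgeR, adjusted p = 0.385).

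The octamer pair differed in level more than in response. Pou2af1 (chromosome 9, 51213708 to 51240080, plus strand) had 358132, 331664 and 349363 normalized counts in Control and 331231, 328534 and 340837 in Prmt1-null iGBs. The ranges overlapped, and the interval of its log2 fold change, -0.16 to 0.05 around -0.05, was the narrowest of the 10 (edgeR, adjusted p = 0.701). Pou2f2 (chromosome 7, 25087344 to 25179726, minus strand) had 2018, 2360 and 2761 against 2714, 2584 and 2098, with the male library lowest in each group. Its log2 fold change was 0.05 with an interval of -0.20 to 0.30 (edgeR, adjusted p = 0.89), and without Control 1 it was -0.05, so its direction was not settled.

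Irf8, the interferon regulatory factor that pairs with PU.1 and SPIB (chromosome 8, 120736358 to 120756694, plus strand), had 24306, 25538 and 29257 normalized counts in Control and 28267, 28449 and 26555 in Prmt1-null libraries. Control 3 was the highest of all 6 and the groups overlapped, with a log2 fold change of 0.07 and an interval of -0.08 to 0.23 (edgeR, adjusted p = 0.73). Leaving out a library moved the value from 0.022 without Control 1 to 0.16 without Control 3, with no call (edgeR, adjusted p = 0.259 for the latter). Mef2b, which switches on Bcl6 in germinal centre cells (chromosome 8, 70139711 to 70167488, plus strand), had 878, 944 and 1141 against 1047, 1123 and 1251. Each Prmt1-null value but the last lay within the Control range, and the log2 fold change was 0.21 with an interval of -0.05 to 0.46 (edgeR, adjusted p = 0.49). It ran from 0.13 without Control 1 to 0.32 without Control 3 (edgeR, adjusted p = 0.204 for the latter), and the log2 ratio was 0.51 for the male pair and 0.06 for the females, a difference that was not tested. The exons of Mef2b share 62 bases with Borcs8 on the same strand, and those of Pax5 share 761 bases with opposite-strand genes.

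**Figure D4:**
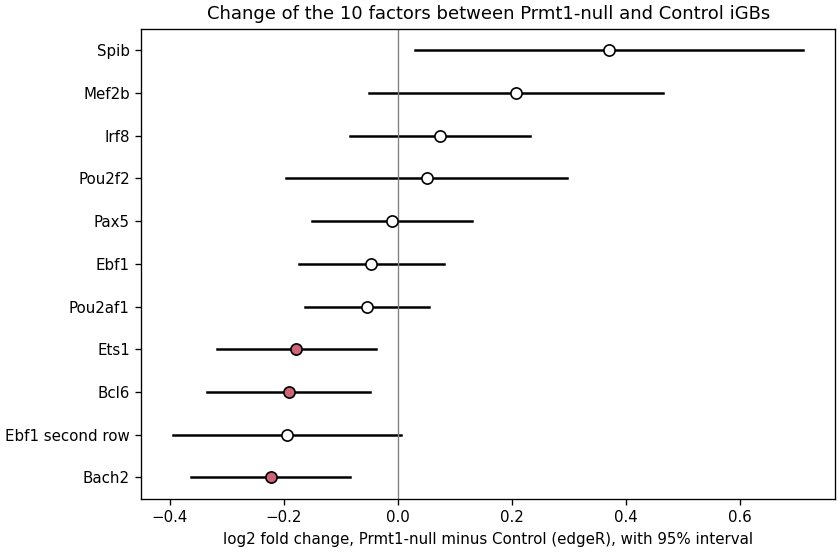
Log2 fold change, Prmt1-null minus Control (horizontal axis), of each factor and of the separate Ebf1 row, from edgeR with 3 mice per group. Lines are 95% intervals, and filled points are genes whose groups do not overlap. The intervals of Bach2, Bcl6 and Ets1 lie below 0 and that of Spib above 0, before adjustment over 18268 genes.

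Relatives and partners of the factors were described in the same way. Of 22, among them the PU.1 gene Spi1, the MEF2 and ETS relatives and the corepressors that BCL6 and PAX5 recruit, 0 passed in edgeR and 4 had an unadjusted p under 0.05 (DESeq2 called 1), beside 1.18% and 13.5% of all genes tested. Their median log2 fold change was -0.003, with values from -0.19 to 0.24. The 2 with the smallest p were Tle3, a Groucho corepressor, with -0.19 (adjusted p = 0.165), and Tbl1xr1, a subunit of the NCOR complex, with -0.17 (adjusted p = 0.192). Of 16 other transcription factors of B cells, 2 higher and 5 lower had an unadjusted p under 0.05 in edgeR, against 13.5% of all genes. The groups did not overlap for 6 of the 16, against 19.9% of all genes. The median of the 16 was -0.01, and 1 passed. This was Mybl1, a MYB family factor of germinal centre B cells, which fell by 0.50 on the log2 scale (SE 0.111, adjusted p = 0.0456), from 1383, 1327 and 1484 to 1014, 1098 and 856 normalized counts. The call on Mybl1 was lost in 6 of the 6 fits that left out 1 library, and with all 6 libraries under the replicate block and with chromosome Y genes kept.

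Genes that PAX5 and BCL6 are known to regulate were described beside the factors, although several of them answer to other regulators too. Over all genes tested, 1.18% were called, 0.58% higher and 0.602% lower. Of 11 genes that PAX5 activates, 1 passed, Cr2 (complement receptor CD21), which was lower by a log2 fold change of -0.48 (adjusted p = 0.0241), opposite to the median of the list, 0.13. The call on Cr2 was lost in 4 of the 6 fits that left out a library, all but those without Control 3 and without Prmt1-null 1. Cr2 is listed in a pair of rows, and the other, ENSMUSG00000094924, was not called, with a log2 fold change of -0.18 (adjusted p = 0.6855). Among these 11 genes, 6 had groups that did not overlap, 5 of them higher in Prmt1-null iGBs, against 19.9% of all genes tested in either direction. Of 12 genes that PAX5 represses in the B lineage, 2 rose, the costimulatory receptor gene Cd28 with 1.49 (adjusted p = 0.00309) and the surface protein gene Ly6a with 0.68 (adjusted p = 0.00491). Their median was 0.26, while Pax5 itself was at -0.01. Of 18 genes that BCL6 represses, Cd80, which encodes a ligand of CD28, rose by 0.35 (adjusted p = 0.033) and 0 fell in edgeR (1 had an unadjusted p under 0.05 in that direction, and DESeq2 called 0 lower), with a median of 0.04. Cd28 and Ly6a were called in each of the 6 fits that left out a library, and Cd80 in 1 of 6, that without Control 3. The list of 12 germinal centre genes had 1 call, Mybl1 again, and a median of -0.002. Its lowest value, -0.89 for Efnb1, a gene singled out after its values were seen, did not pass (edgeR, adjusted p = 0.094). The 5 plasma cell markers, of which Prdm1, Xbp1 and Jchain are also on the lists of repressed genes, summed to 53591 to 60217 in Control and 61295 to 66277 normalized counts in Prmt1-null libraries. In edgeR 0 of 5 passed and 2 had an unadjusted p under 0.05, against 1.18% and 13.5% of all genes, with 4 of 5 above 0. The 2 were Xbp1 with 0.29 (edgeR, adjusted p = 0.0571), whose groups did not overlap, and Irf4 with 0.16 (edgeR, adjusted p = 0.337). The study reports raised plasma cell signatures in these iGBs from gene set enrichment. The lists were chosen with results of these samples known and are described by counts and medians only.

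**Figure D5:**
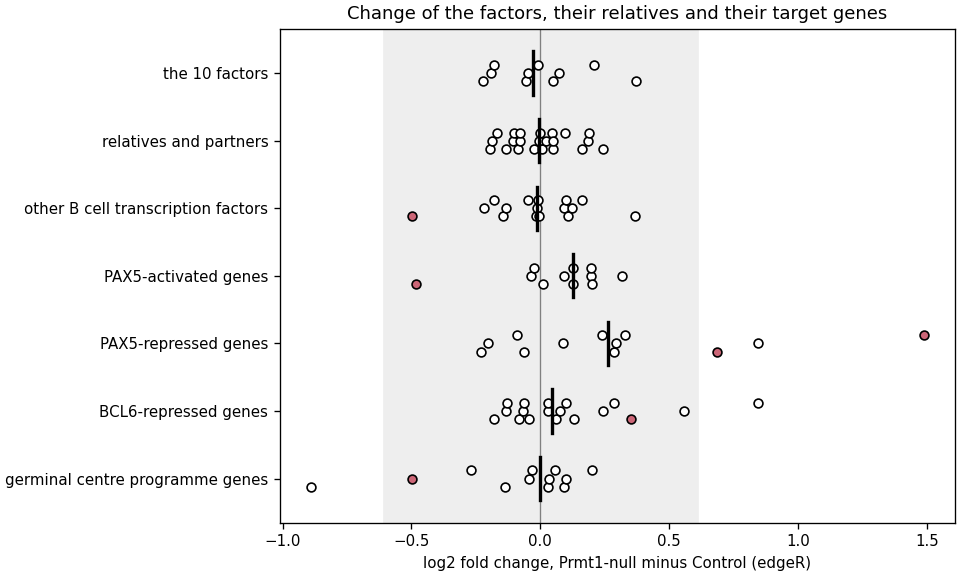
Log2 fold change, Prmt1-null minus Control (horizontal axis), of each gene in 7 lists. Filled points passed the edgeR threshold, the vertical bar is the median of a list and the grey band holds the middle 90% of all genes tested, from -0.61 to 0.61. The 10 factors lie inside the band with a median of -0.03, and the median of the PAX5-repressed genes is 0.26. The band also covers genes of low count with wide errors, so a place inside it does not show that a factor was unchanged.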

How the data were processed

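RNA of 6 iGB libraries was analysed. Per the submitters' notes and the study's methods, the authors used Trimmomatic 0.32 for trimming, STAR 2.3.0e for alignment to mm10 and featureCounts 1.4.4 for counting on Ensembl exons, with up to 2 locations allowed per read. They deposited raw counts, without normalization. The library kit was stranded, and the strand setting of the counting is not given in the sources used here, so genes with opposite-strand neighbours are uncertain.

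The test was that of edgeR 4.0.16 in R 4.3.3: chromosome Y genes (398) left out as in the study's methods, filterByExpr (minimum count 10), TMM normalization and the quasi-likelihood test with Benjamini-Hochberg adjustment over 18268 genes. A gene was called where its mean normalized count was over 100 and its adjusted p under 0.05. Normalized counts are counts divided by TMM-scaled library size and brought to the mean library. RPKM used exon lengths of GENCODE M21. The fits were tested on simulated data, in which the changes were larger than that of any factor. How well the fits detect changes of the factors' own size was not tested. An exact permutation test of 3 against 3 cannot give a p under 0.1. The p-values weigh the group difference against the spread between libraries of different mice, which edgeR moderates over genes. Spread between mice and between their cultures cannot be told apart.

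Alternatives were DESeq2 1.42.0 with and without a prior, limma-voom 3.58.1, DESeq2 size factors, no count filter, a replicate block, sex as a covariate, chromosome Y kept, no minimum mean and each library left out. DESeq2 was the study's own test, in an earlier version, and the fit without a prior called 706 genes, the number the study reports. The robust spread estimate was added after seeing the data. The text names the 10 factors, Prmt1 and, of each list other than the cell type markers, the genes called or, with none, the 2 of smallest p. Outside this rule, cell type markers and Spi1 are named to say what a list holds. The myeloid markers, Xbp1 and Irf4 are also given with values, and Efnb1 was named after its values were seen. A gene of the B cell marker and PAX5-activated lists is not reported here. The factors, lists and tests were chosen with earlier results of these data known.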

Additional observations from a re-analysis of the deposited data

How the results depend on the processing

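Genes called over the whole table numbered 216 with edgeR, 706 and 705 with DESeq2 without and with a prior, 675 without the filter on low counts, 249 with limma-voom and 317 with the robust spread estimate, which was chosen after the data had been seen; leaving out a library gave 31 to 338. Without the filter, edgeR's estimated prior degrees of freedom became infinite, so each gene took the trend's spread in place of its own; the adjusted p of Spib in that fit, 1.21e-05, therefore does not weigh its replicates. Members called were 0, but 2 with either DESeq2 fit (Bach2 and Ets1), 2 without the filter (Bach2 and Spib), and 0 to 1 with a library left out, the 1 being Spib without Control 3. Their median log2 fold change stayed between -0.04 and 0.0002. Directions of members turned only with a library left out: Pax5 ran from -0.042 to 0.038, being 0.038 without Control 3 and 0.032 without Prmt1-null 3, and Pou2f2 from -0.051 to 0.17, being -0.051 without Control 1 and -0.020 without Prmt1-null 1. For the lists, the relatives and partners had 1 call with either DESeq2 fit and 0 to 1 with a library left out. The other B cell factors had 2 with either DESeq2 fit and without the filter, 0 with the replicate block and with chromosome Y kept, and 0 to 1 with a library left out. The PAX5-activated genes had 3 with either DESeq2 fit, 2 with limma-voom, without the filter and with the robust estimate, and 0 to 2 with a library left out. The PAX5-repressed genes had 2 to 3 under every setting tried. The BCL6-repressed genes had 3 with either DESeq2 fit and without the filter, 2 with limma-voom and with the robust estimate, and 0 to 3 with a library left out. The germinal centre genes had 3 with either DESeq2 fit, 2 without the filter, and 0 with the replicate block, with chromosome Y kept and with any library left out. Beyond the prior named above, the cause of these moves was not tested. The replicate block gave 151 calls over all genes and 0 among the members. Over 13092 genes, deviations of same-numbered libraries from their group means correlated at -0.28, 0.20 and -0.32. Same-sex pairs correlated at 0.18 to 0.46 and mixed-sex pairs at -0.32 to -0.28. Libraries numbered 1 and those numbered 3 differed in sex between the groups, and those numbered 2 did not. The correlations therefore cannot settle whether the numbers pair the mice. With sex as a covariate, 283 genes and 0 members were called.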
